A study of Solanum lycopersicum and Arabidopsis thaliana and Cannabis sativa with 28 samples.

Results

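Within the H3K9ac domains called between 2 h JA-treated and untreated tomato seedlings, 297 of 17455 listed domains stood out by the size of their gain. They were selected on 2 values of the domain table, a ratio of 2 h JA to untreated (ctrl) reads of at least 1.6 and at least 100 reads in both libraries together. A further 25 domains had such a ratio but fewer reads and were left out. The selected domains, called members below, made up 1.7% of the listed domains and 1.45% of their summed length (1.42 of 98.0 Mb). They held 142238 of the 9443107 reads of the 2 h JA library in listed domains (1.51%) and 71780 of the 8987855 reads of the ctrl library (0.799%). As the ratio chose them, their gain after JA is given as a description and not as a test.

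Acetylation of lysine 9 of histone H3 (H3K9ac) is laid down by histone acetyltransferases at promoters and along the bodies of active genes. Trimethylation of lysine 4 (H3K4me3) marks the start of transcribed genes. Jasmonate (JA) is the plant hormone of wounding and herbivory. Its perception removes the JAZ repressors from MYC2, a transcription factor that recruits the Mediator complex and acetyltransferases to defence genes. In tomato, proteinase inhibitors, which block the digestive proteases of insects, are a classical output of this pathway.

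The values came from 2-week-old seedlings of Micro-Tom, a dwarf tomato variety, profiled by PHILO ChIP-seq, a low-input ChIP-seq protocol for many samples at a time. H3K9ac was measured in 3 ctrl libraries of untreated seedlings and in 3 libraries of seedlings kept for 2 h in JA vapour. H3K4me3 was measured in 3 libraries of untreated seedlings, with 3 IgG libraries as control. All 12 libraries came from the same variety and from whole seedlings, so that a change in a few cells and a smaller change in many cannot be told apart. Groups were taken from the library titles, since the treatment entry of the labels reads the same for ctrl and 2 h JA libraries. In an accompanying library list, the third replicates of ctrl and 2 h JA stand with exchanged treatments. Its bearing on the ratios was not tested, as the merged counts do not separate the replicates. The deposited counts are of the 3 merged replicates, so that each domain has 1 value per group and no spread between replicates. For single ratios, 95% intervals by the Clopper-Pearson method are given, which cover the error of counting and no more. Intervals of shares over domains are Wilson intervals (95%), and neighbouring domains are not independent of each other. The domain caller listed domains with more reads after JA once its scaling of the libraries (1.18, given below) was applied, so that raw ratios went down to 0.881 and losses of H3K9ac beyond this were not analysed here.

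Members started from a low level of H3K9ac. Their median was 41.1 ctrl reads per kb (lowest 3.08, highest 155) and 81.3 reads per kb after 2 h JA (lowest 33.3, highest 259). The 17075 other listed domains with at least 100 reads had a median of 89.8 reads per kb in ctrl and 94.5 after JA. After JA, the median of the members thus still lay below that of the other listed domains. The difference in ctrl level is a description, since ctrl reads enter the ratio that chose the members and low ones favour it. The median ratio was 1.84 in members (quartiles 1.67 and 2.27, highest 29.8) and 1.05 in the others. Of the 297 members, 186 had a ratio under 2, 111 a ratio of at least 2 (0.636% of the listed domains), 33 of at least 3 and 13 of at least 5. The interval of the ratio lay wholly above 1.6 in 113 members and reached below 1.6 in 184. It could not reach 1 in any member, since a ratio of at least 1.6 on at least 100 reads keeps it above 1. These ratios are of raw reads, and the scaling in the deposited fold changes multiplies them by 1.18, so that a ratio of 1.6 is a scaled fold of 1.88.

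**Figure D1:**
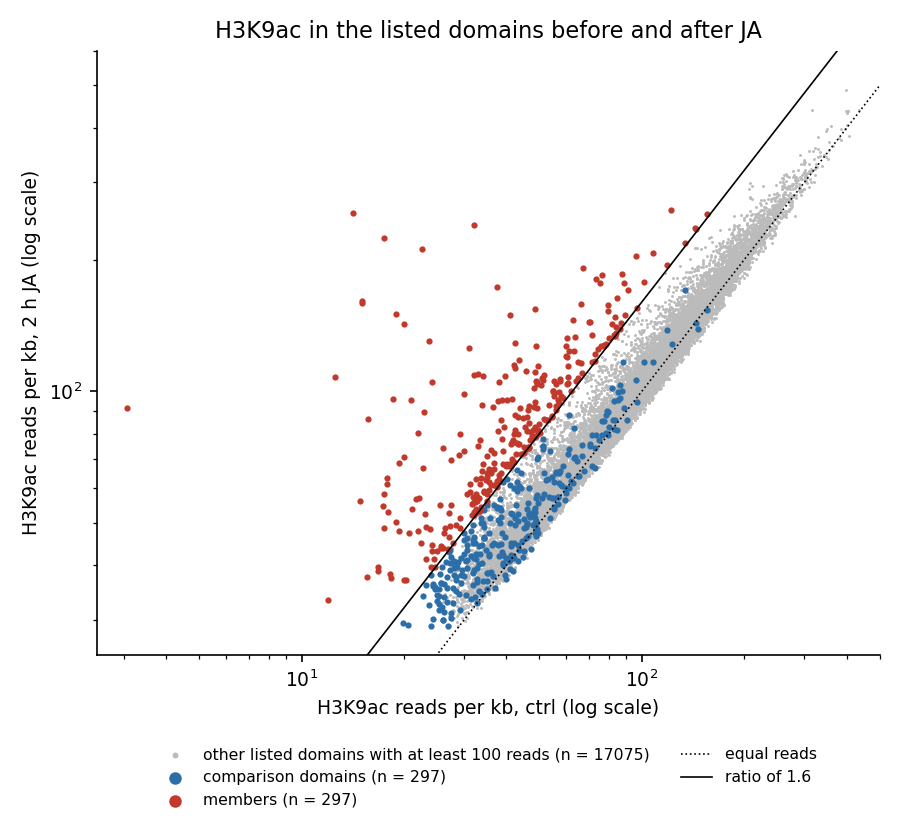
H3K9ac reads per kb in ctrl (x axis) and after 2 h JA (y axis) of single domains from the merged libraries, both on log scales, for 297 members (red), their 297 comparison domains (blue) and the 17075 other listed domains with at least 100 reads (grey, of which the blue points are a subset). The members lie above the line for a ratio of 1.6 by selection, and most lie on the left side, with a median of 41.1 ctrl reads per kb against 89.8 in the others. Ctrl reads enter the ratio that chose the members, so that the rule favours the left side.

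Within the members, ratio and starting level went in opposite directions (Spearman's rho = -0.41 over 297 domains, a description, since ctrl reads enter both measures). The ratio hardly varied with size (rho = -0.06). Members were 599 to 38599 bp in size, with a median of 2799 bp. A size here is the end minus the start of a domain.

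For each member, a comparison domain was picked among the other listed domains with at least 100 reads, without reuse, so that ctrl reads per kb and size were as close as possible over all pairs. The 297 comparison domains had a median of 41.3 ctrl reads per kb, 49.0 reads per kb after JA and a median size of 2799 bp. Their ratios, with a median of 1.17, went up to 1.59. In 207 pairs the partners lay within 0.1 SD of each other. The members with the lowest ctrl level had no equal, because 25 members but only 1 other listed domain had fewer than 20 ctrl reads per kb. The rule itself brings this about. Other domains with at least 100 reads and a ratio under 1.6 held at least 39 ctrl reads, while members went down to 15. Members with fewer than 39 ctrl reads could thus have no partner of equal level and size.

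The 10 highest ratios belonged to domains with little H3K9ac in untreated seedlings, between 3.08 and 32.0 reads per kb, and with 91.7 to 256 reads per kb after 2 h JA. Of these, 9 were 799 to 1799 bp in size, while the domain with the highest ratio was longer, with 5199 bp. This domain, chr12:61932200-61937399, held 477 reads after JA and 16 in ctrl, a ratio of 29.8 (18.2 to 52.6). At chr12:61504200-61505399, 307 reads stood against 17, a ratio of 18.1 (11.1 to 31.4). On chromosome 1, chr1:53912800-53913999 held 269 and 21 reads (ratio 12.8) and chr1:20057400-20058399 held 161 and 15 (ratio 10.7). All 4 rested on 15 to 21 ctrl reads, which makes their intervals wide. The next places were taken by chr12:61087000-61088199 with 191 and 18 reads, chr12:6101600-6102399 with 169 and 18, and chr12:61093400-61094599 with 129 and 15, at ratios of 10.6, 9.39 and 8.60. Of the 10 members with the highest ratios, 5 lay on chromosome 12, and 4 of these between 60 and 62 Mb. The remaining 3 of the 10 were chr7:58171000-58172799 (270 and 34 reads, ratio 7.94), chr2:46895200-46896199 (240 and 32 reads, ratio 7.5) and chr9:26695200-26695999 (114 and 16 reads, ratio 7.13). No gene names are given for these domains, as the files do not pair them with genes and an annotation of this assembly (SLM_r2.0) was not used here.

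H3K4me3, which came from other libraries, was present at 9 of these 10 domains in seedlings that had received no JA. H3K4me3 domains covered 34.6% of the domain with the highest ratio and 66.7% to 100% of the following 8. They held between 65.9 and 206 H3K4me3 reads per kb against 3.89 to 30.03 IgG reads per kb. For scale, the median over all 18163 H3K4me3 domains was 146 H3K4me3 and 19.1 IgG reads per kb. In 5 of the 9 the H3K4me3 level was above that median, while their H3K9ac level in ctrl was 3.08 to 17.5 reads per kb. The value of 3.89 IgG reads per kb belonged to the domain with the highest ratio and was the lowest among the members with H3K4me3. Only chr9:26695200-26695999 had no H3K4me3 domain, the nearest lying 6601 bp away.

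The longest members held the most reads. The ratios of the 5 longest lay between 1.67 and 3.16, against a median of 1.84 in all members. The longest, chr12:67741600-67780199 (38599 bp), is the domain in which the study places hydroxycinnamoyl CoA quinate transferase genes (Solyc12g096770 and its neighbours), enzymes of chlorogenic acid synthesis in the phenylpropanoid pathway. It held 5100 reads after JA and 2324 in ctrl, a ratio of 2.19 (2.09 to 2.31), and 6 H3K4me3 domains lay in it. Also long were chr1:92285800-92316599 (30799 bp, 4315 and 2587 reads, ratio 1.67) and chr1:1364800-1394399 (29599 bp, 3750 and 2250 reads, ratio 1.67). In both, the interval of the ratio reached just below 1.6 (1.59 and 1.58). The domain in which the study places SlJAZ2, which encodes a JAZ repressor, was no member. At chr1:671000-690199 it held 3845 reads after JA and 2654 in ctrl, a ratio of 1.45 (1.38 to 1.52). RefSeq lists a JAZ2 gene of tomato on chromosome 12 in a later version of the assembly, so that it is unsure which JAZ gene this value belongs to.

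The second and the third longest members lay near each other on chromosome 9, and these are the domains in which the study places proteinase inhibitor genes. The former, chr9:66598000-66632599, held 3577 reads after JA and 1745 in ctrl, a ratio of 2.05 (1.94 to 2.17). The latter, chr9:66670600-66703999, held 5138 and 1624 reads, a ratio of 3.16 (2.99 to 3.35). They stood in the locus with the most members, a run of 6 members over 160 kb (chr9:66555600-66715599) in which every listed domain was a member. The other 4 of the run were chr9:66555600-66561999 (690 and 389 reads, ratio 1.77), chr9:66562800-66564199 (99 and 28 reads, ratio 3.54), chr9:66662400-66668799 (956 and 263 reads, ratio 3.63) and chr9:66705000-66715599 (1348 and 818 reads, ratio 1.65). The ratios in the run thus ranged from 1.65 to 3.63, on merged libraries without a spread between replicates. H3K4me3 domains lay in 4 of the 6 members and covered 23.4% to 41.5% of them, so that most of the acetylated length lay outside H3K4me3 domains. The member with the highest ratio in the run (3.63) had no H3K4me3 domain within 6401 bp.

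**Figure D2:**
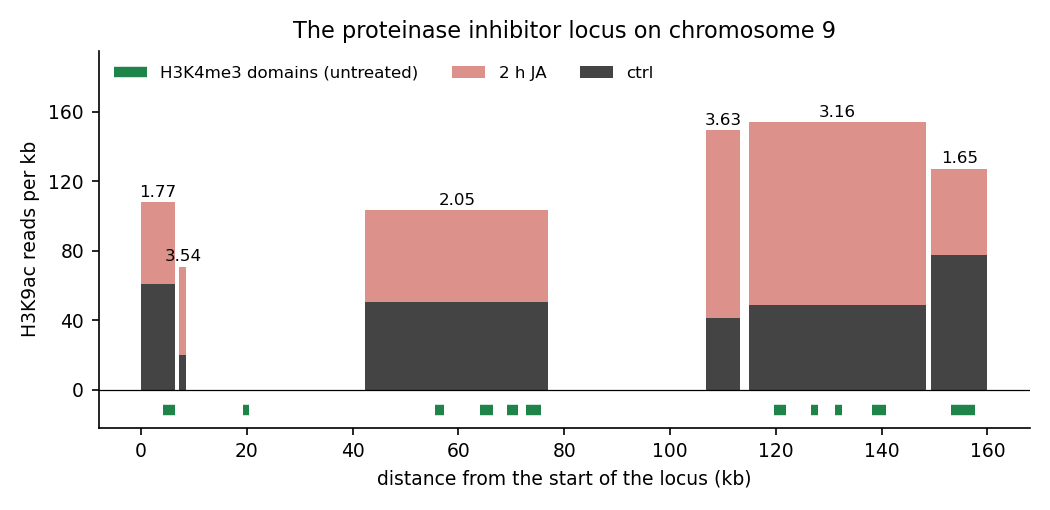
H3K9ac reads per kb (y axis) in the 6 members of the proteinase inhibitor locus on chromosome 9, by distance from the start of the locus in kb (x axis). The height of each block gives the level in ctrl (dark) and after 2 h JA (red, drawn from 0 behind the dark block), the number above it the ratio, and the green bars below 0 the H3K4me3 domains of untreated seedlings, which take up a minor part of the 2 longest blocks.

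An H3K4me3 domain of untreated seedlings overlapped 116 of the 297 members (39.1%, 33.7% to 44.7%) by at least 1 bp. The share was 19.9% (15.7% to 24.8%, 59 of 297) in the comparison domains of equal ctrl level and size, a difference of 19.2 percentage points (interval 11.9 to 26.2). Over all 17075 other domains it was 69.9%. What the members are compared with thus sets the direction: they overlapped H3K4me3 more often than domains with their ctrl level, and less often than the bulk of listed domains. When comparison domains were instead picked for equal 2 h JA reads per kb and size, a choice made after seeing the data, 53.5% (47.9% to 59.1%) of them overlapped H3K4me3, 14.5 percentage points more than of the members. The share in members therefore lay between that of domains with their level before JA and that of domains with their level after JA.

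The overlap was higher in classes of higher ratio. H3K4me3 domains overlapped 32.3% of the 186 members with a ratio from 1.6 to under 2, 43.6% of the 78 from 2 to under 3, 50% of the 20 from 3 to under 5 and 92.3% (66.7% to 98.6%) of the 13 with a ratio of at least 5. The shares in their comparison domains matched on ctrl level went the other way, with 24.7%, 15.4%, 5.00% and 0% (up to 22.8%). Most of the contrast thus came from members with ratios of at least 2, while the intervals of the shares overlapped for ratios under 2 (26.0% to 39.3% and 19.1% to 31.4%). For ratios of at least 3 the partners were not equal. Their median was 28.9 ctrl reads per kb against 23.5 in members with ratios from 3 to under 5. It was 26.7 against 17.5 for ratios of at least 5. In comparison domains of equal 2 h JA level, the shares were 52.2%, 55.1%, 40% and 84.6%. The intervals of members and these domains were apart only for ratios under 2 (26.0% to 39.3% and 45.0% to 59.2%).

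**Figure D3:**
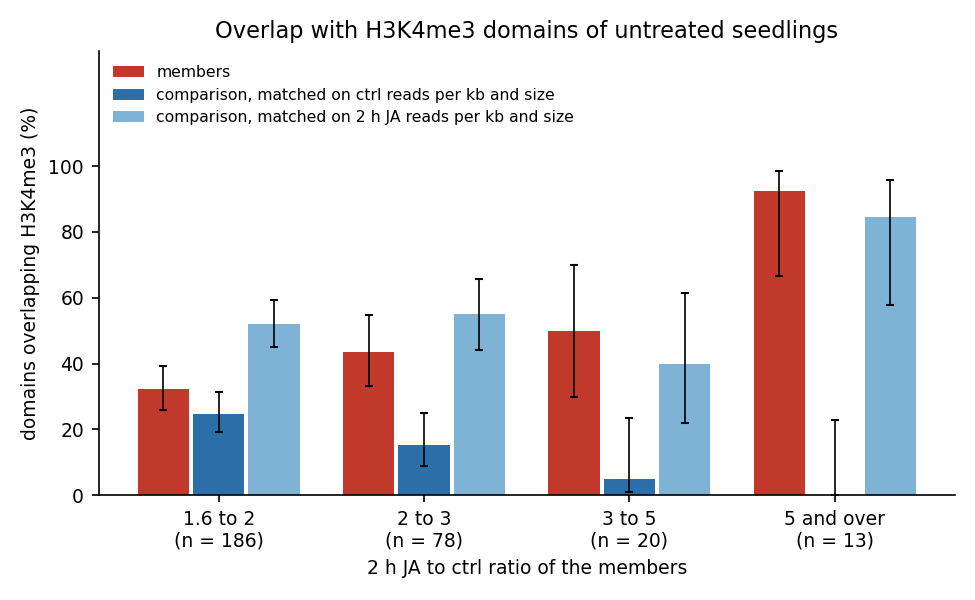
Share of domains that overlap an H3K4me3 domain of untreated seedlings (y axis, in percent, with 95% Wilson intervals over domains) by ratio class (x axis), for members (red), comparison domains matched on ctrl reads per kb and size (dark blue) and comparison domains matched on 2 h JA reads per kb and size (light blue). Members go from 32.3% to 92.3%, the dark blue bars from 24.7% to 0%, and the light blue bars lie at 52.2% and 84.6% in the lowest and the highest class.

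The share was higher in members than in domains of equal ctrl level in each size class, but the intervals were apart only among short domains. Among the 109 members under 2 kb, 29.4% (21.6% to 38.5%) overlapped H3K4me3 against 5.50% (2.55% to 11.5%) of their partners. From 2 to under 5 kb, the shares were 34.0% (25.4% to 43.9%) and 17.5% (11.2% to 26.3%), and from 5 to under 10 kb 43.1% (31.2% to 55.9%) and 27.6% (17.8% to 40.2%). Among the 33 of at least 10 kb, they were 78.8% (62.2% to 89.3%) and 60.6% (43.7% to 75.3%). At least 50% of the length was covered in 13.5% of members, 3.03% of comparison domains and 32.0% of all others. At least 2 H3K4me3 domains lay in 22 members, which had a median size of 14399 bp, and in 10 comparison domains.

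The H3K4me3 domains within members were weaker than most. The 153 of them had a median of 78.8 H3K4me3 reads per kb and a log2 fold change over IgG of 2.76, and the 77 in comparison domains 75.03 reads per kb and 2.93. The 15273 H3K4me3 domains at the other listed domains had 154 reads per kb and 3.76. The IgG level was alike, with 19.0, 19.2 and 19.1 reads per kb. In strength, the H3K4me3 domains of members thus resembled those of comparison domains with equal ctrl H3K9ac. Of the 153, 94.8% lay wholly inside the member.

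Members with H3K4me3 were longer and more acetylated than the 181 members without. Their median size was 3899 against 2399 bp, their level 53.2 against 35.5 ctrl reads per kb and 115 against 68.0 reads per kb after JA, and their ratio 1.98 against 1.80. The quartiles of the ratio overlapped (1.69 to 2.55 and 1.66 to 2.09). Members without H3K4me3 still tended to lie near such a domain, at a median distance of 5401 bp against 9601 bp in comparison domains and 8001 bp in all others without overlap. A few were large. The domain chr8:54248800-54263999 (15199 bp) held 1933 reads after JA and 741 in ctrl, a ratio of 2.61 (2.396 to 2.84), with the nearest H3K4me3 domain 12401 bp away. The next longest were chr5:65009800-65022999 (807 and 487 reads, ratio 1.66) and chr8:60944200-60956599 (2110 and 1127 reads, ratio 1.87). The latter reached 170 reads per kb after JA, a high level among members without H3K4me3, which went up to 173. The most isolated member, chosen after its values were seen, was chr12:26591200-26592199 with 108 and 34 reads (ratio 3.18), 604201 bp from the nearest H3K4me3 domain.

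Members lay closer to each other along the chromosomes than the comparison domains did. Another member lay within 100 kb of 131 members (44.1%, 38.6% to 49.8%), while 53 of the 297 comparison domains (17.8%, 13.9% to 22.6%) had another comparison domain that near. The median distance to the nearest of the same set was 191 kb for members and 615 kb for comparison domains. Within 20 kb the shares were 29.0% and 5.05%, within 2 kb 13.5% and 2.02%, and within 500 kb 63.3% and 46.5%. The difference was 26.3 percentage points within 100 kb, against 23.9 within 20 kb and 16.8 within 500 kb. Adjoining stretches of a single gain can be listed as separate domains, so that the nearest pairs may not be separate. Of the listed domains directly beside a member and at most 100 kb away, 102 of 544 (18.8%) were themselves members. Beside a comparison domain, 19 of 532 (3.57%) were members. A neighbour was counted once for each domain of the set that it adjoined. The other neighbours of members had a median ratio of 1.10 (quartiles 1.03 and 1.21), against 1.05 (1.00 and 1.13) for those beside comparison domains. With members left out, ratios of at least 1.6 on at least 100 reads are missing from both. All these ratios are of the contrast that chose the members and are a description.

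**Figure D4:**
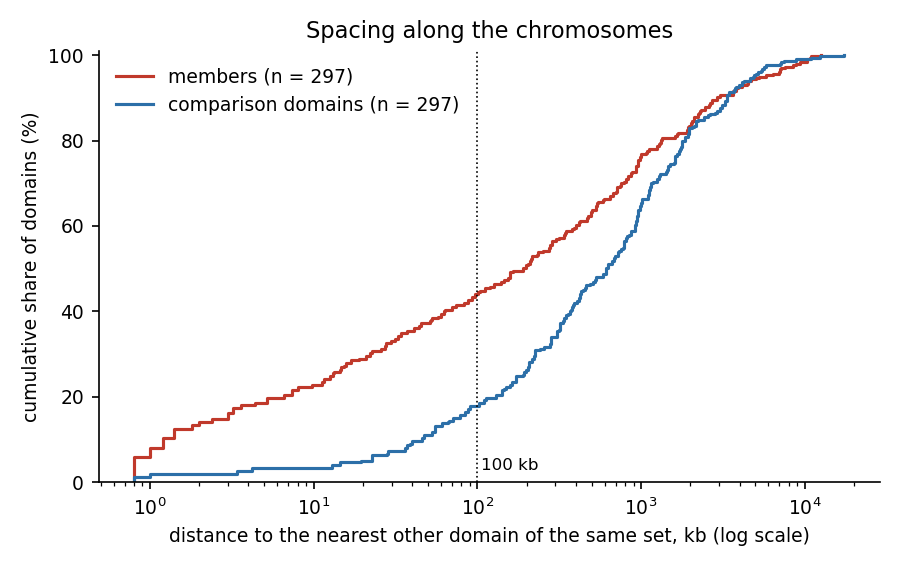
Cumulative share of domains (y axis, in percent) by distance to the nearest other domain of the same set in kb (x axis, log scale) for 297 members (red) and 297 comparison domains (blue). At 100 kb (dotted line) the curves stand at 44.1% and 17.8%, and they meet at distances of several Mb.

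Joined at gaps of at most 100 kb, the members formed 218 loci. In these, 166 members stood alone, 32 loci had 2 members, 16 had 3, 2 had 4 and 1 each had 5 and 6. The 20 loci of at least 3 members held 67 members (22.6%). The comparison domains formed 267 loci, 23 of them with at least 2 and 5 with at least 3 domains.

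After the proteinase inhibitor locus, the locus with the most members was made of weak domains. It spanned 234 kb (chr12:6554200-6788199), and 5 of its 6 listed domains were members. From 5′ to 3′ of the assembly these held 79 and 47, 120 and 43, 128 and 53, 68 and 37, and 164 and 52 reads after JA and in ctrl, with ratios of 1.68, 2.79, 2.42, 1.84 and 3.15. All 5 stood at no more than 54.7 reads per kb after JA, and only the last overlapped an H3K4me3 domain. In the next locus, over 47.2 kb (chr8:60909400-60956599), all 4 listed domains were members with ratios of 2.04, 2.94, 2.73 and 1.87, and 2 of them overlapped H3K4me3. It includes the third of the long members without H3K4me3 given above. At chr9:68259600-68335799, 4 of 9 listed domains were members, with ratios from 1.63 to 2.14. At chr3:57801600-57894799, taken for its reads among the 16 loci of 3 members, 3 of 8 were, each over 12 kb long and with ratios of 2.38, 1.98 and 2.84. In this locus every member touched an H3K4me3 domain, but these covered only 3.41% to 21.3% of the member. The runs were thus unlike each other in level, size and H3K4me3.

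Chromosome 12 held more members than any other. There, 56 of 1320 listed domains (4.24%) were members, against 0.771% to 2.27% on the other 11 chromosomes, and 9 of the 297 comparison domains lay there. The members of chromosome 12 had a median ratio of 2.12 and a median ctrl level of 31.8 reads per kb, against 1.82 and 41.9 for the other 241. The median ratio was not particular to chromosome 12, as the 12 members of chromosome 2 had 2.15 and the 25 of chromosome 8 had 2.04. They were gathered in a few places. Between 6 and 8 Mb, 14 of 94 listed domains were members, and between 60 and 62 Mb 12 of 78. Among bins of 2 Mb with at least 6 members, the share was highest at 12 to 14 Mb of chromosome 8, where 6 of 14 listed domains were members. Such bins were picked after their counts were seen. H3K4me3 overlapped 46.4% (34.0% to 59.3%) of the chromosome 12 members and 37.3% (31.5% to 43.6%) of the others. Why chromosome 12 held so many was not tested. Without chromosome 12, the overlap with H3K4me3 was 37.3% in members and 19.9% in comparison domains, and another of the set lay within 100 kb of 39.0% and 14.5%.

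**Figure D5:**
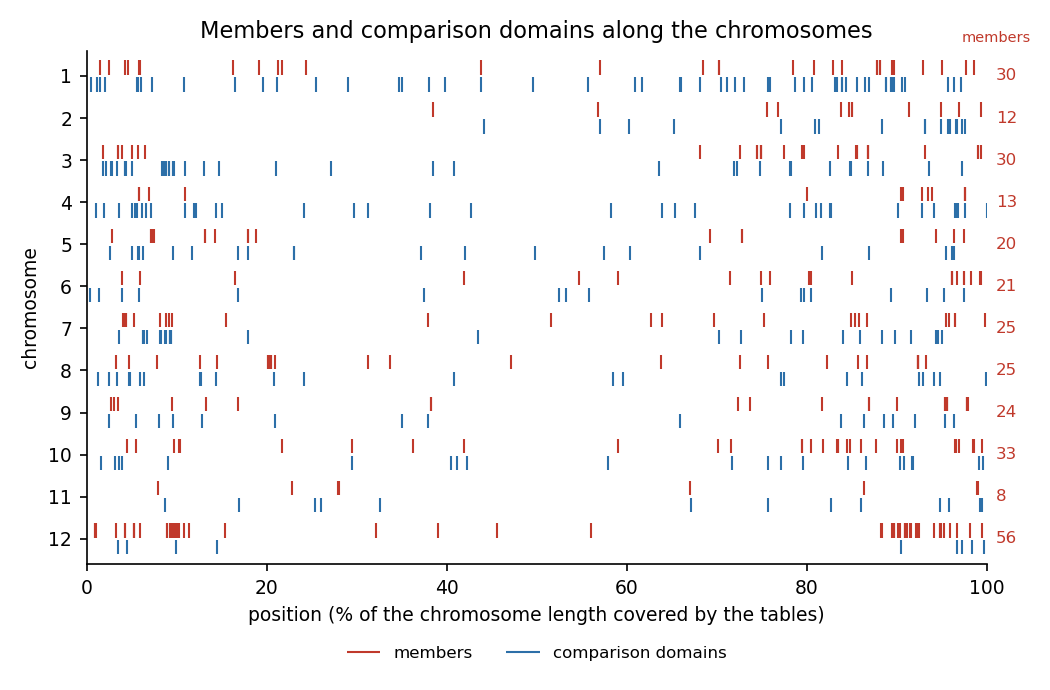
Positions of the 297 members (red) and 297 comparison domains (blue) on the 12 chromosomes (y axis), in percent of the chromosome length covered by the tables (x axis). The numbers on the right count the members of each chromosome, with 56 on chromosome 12, where they gather near both ends.

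By their surroundings, members did not differ from comparison domains beyond the intervals. Fewer than 10 H3K4me3 domains within 500 kb on either side of the midpoint, here called a sparse surrounding, were found for 45 members (15.2%, 11.5% to 19.7%), 59 comparison domains (19.9%, 15.7% to 24.8%) and 13.9% of all others. The difference between members and comparison domains was -4.71 percentage points (interval -10.8 to 1.42). The median number of H3K4me3 domains in this window was 43 for members, 44 for comparison domains and 59 for all others. The nearer end of the chromosome lay at a median of 9.87% of its length from members, 11.5% from comparison domains and 10.3% from all others. Of the 45 members in sparse surroundings, 10 were on chromosome 8, where 25 members lay. The members chr1:53912800-53913999 and chr1:20057400-20058399, which rank just below the 2 highest ratios, were among the 45, with 6 and 4 H3K4me3 domains around them.

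The threshold cut through a continuous range of ratios. Just inside it, 3 members had a ratio of exactly 1.6, with 104 and 65, 992 and 620, and 224 and 140 reads after JA and in ctrl. Just outside, domains with 187 and 117, 198 and 124, and 67 and 42 reads had ratios of 1.598, 1.597 and 1.595. Domains on either side of the threshold thus differed by less than their counting error.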

How the data were processed

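Alignment by the authors used Bowtie2 2.4.1 and the SLM_r2.0 assembly. They pooled the 3 replicates per group and ran epic2 0.0.52 for domain calling, with ctrl as the control of 2 h JA for H3K9ac and IgG as that of H3K4me3. Window, gap, duplicate and mapping filters are not given in the sources used here, and the sources differ on whether chromatin was sonicated or digested. The deposited tables hold raw read counts per domain in both merged libraries. The authors' log2 fold change over the control, also deposited, served to keep H3K4me3 domains of at least 1 (18163 of 18758), as the strength of these domains, and to read off the scaling of the H3K9ac libraries. The p-value and FDR columns of epic2 were not used.

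Per domain, the ratio, reads per kb and overlap (at least 1 bp) were computed. Comparison domains came from an optimal one-to-one assignment on log2 ctrl reads per kb and log2 size, each in SD. Domains are not replicates, and merged libraries leave no spread between samples, so that no test was made. Alternatives concerned the thresholds, scaling, assignment and distances. The named domains are those in which the study places genes, the 10 of highest ratio, the 5 longest, the 5 with the most reads, the 5 loci with the most members (ties broken by reads), the 3 longest without H3K4me3 and 3 on each side of the threshold. Members, lists and alternatives were chosen with earlier results of these data known. The functions were tested on simulated data. Hemp and Arabidopsis libraries were not used. Reads carry no molecular identifiers. The software was SciPy 1.17.1, NumPy 2.4.6 and pandas 2.3.3 under Python 3.11.15, with matplotlib 3.10.9 for figures.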

Additional observations from a re-analysis of the deposited data

How the results depend on the processing

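The number of members was 651 at a ratio of at least 1.4 and 111 at a ratio of at least 2. It stayed within 1.5 times of 297 with at least 50 reads (321) and with at least 200 reads (200). So it did with ratios scaled by the totals of uniquely aligned reads (435). Those totals multiply the ratio by 1.07, less than the 1.18 in the deposited fold changes. The count at a scaling of 1.18 was not taken. The totals were summed by the names in the library list in which the third replicates stand with exchanged treatments. The excess of H3K4me3 overlap over comparison domains, 19.2 percentage points, was positive in 13 of 15 alternatives. It became 37.8 at a ratio of at least 2 and 10.4 where at least 50% had to be covered. It reversed to -30.9 against all other domains without matching, and to -14.5 against domains of equal 2 h JA level, an alternative chosen after seeing the data, so that its direction rests on which level is held equal. The excess of members within 100 kb of another, 26.3 percentage points, was positive in all 12 alternatives. It became 10.9 at a ratio of at least 1.4, 16.8 at a distance of 500 kb and 18.4 in pairs within 0.1 SD, also chosen after seeing the data. Such shares depend on how many domains a set holds, which was 651 at a ratio of at least 1.4 and 207 in the close pairs. At a ratio of at least 1.4 they were 45.8% in members and 34.9% in comparison domains. The difference in sparse surroundings lay between -7.41 and -1.997 percentage points in 12 alternatives, and its interval reached 0 in all but that with equal 2 h JA level. No paired analysis was possible because the replicates of each group were merged before deposit, and for the same reason no replicate could be left out. Depth limits single domains: in 184 of 297 members counting error alone reaches below the threshold.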
